A study of Cucumis sativus with 12 samples.

Results

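The genes of galactinol and raffinose synthesis were followed in cucumber leaves during the first day of cold. A gene was a member when its description in the table of all 4 times contained galactinol or stachyose synthase, in any case of letters, and 9 of the 24317 listed genes met that rule. Of these, 3 were described as galactinol synthases and 6 as galactinol--sucrose galactosyltransferases, the enzyme name of raffinose synthases. The descriptions do not say which activity a gene encodes. No description contained stachyose synthase.

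The plants were seedlings of the inbred cucumber line JinYan No. 4 with 3 true leaves, and RNA was taken from leaves before cold (0 h) and after 3, 12 and 24 h of it. Cold meant 15 °C by day and 6 °C by night with 12 h of each, after growth under warmer conditions with a longer day. Each time had 3 libraries, which the study calls biological replicates. No plants kept warm were sampled at 3, 12 or 24 h, so cold, the change of day length and the age of the plant cannot be told apart at any of these times, and neither can the hour of the day at 3 and 12 h (24 h fell at the same clock hour as 0 h). Values are FPKM, fragments per kilobase of transcript scaled to the mapped fragments of the library, which allows levels of different genes to be set side by side. A leaf holds many cell types, and in such a bulk sample fewer cells of a type and less RNA per cell cannot be told apart.

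Raffinose family oligosaccharides are built stepwise on sucrose. Galactinol synthase joins galactose from UDP-galactose to myo-inositol, which commits carbon to the pathway, and raffinose synthase moves the galactose from galactinol onto sucrose. Stachyose synthase adds a further galactose to raffinose. In cucurbits these sugars are made in the companion cells of leaf veins and carried in the phloem, and in many plants they also accumulate under cold or drought.

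The libraries were alike in total FPKM and, within a time, in log2 values. The FPKM of a library summed to between 561513 and 586297, and the depth relative to 0 h replicate 1, read from the smallest values, lay between 0.912 and 1.28. Log2 values of all tested genes correlated at 0.983 to 0.990 within a time and at 0.824 to 0.946 between times. The 19 genes described as chlorophyll a-b binding proteins or small Rubisco subunits, which mark leaf mesophyll, were all above 0, and their summed FPKM lay between 28088 and 32579 at 0 h, between 29027 and 32850 at 3 h, between 66282 and 80447 at 12 h and between 38445 and 53983 at 24 h.

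All 3 galactinol synthase members rose within 3 h of cold, and their later courses parted. They held a small part of the transcripts with a galactinol synthase entry. A gene outside the rule, CsaV3_6G000050, held 91.7 to 92.2% of that FPKM at 3 h. It was not called there (log2 fold change 0.27) and is described below. Among the 3 members the courses were as follows. CsaV3_1G015730 fell back by 12 h and was high again at 24 h, CsaV3_3G031720 had a single peak at 3 h, and CsaV3_5G031520 was highest at 12 h. Among the 5 tested galactosyltransferases, 4 were called lower at 3 h and none was called higher at 3, 12 or 24 h against 0 h, although CsaV3_4G033560 passed the fold threshold upward at 12 h under both other scalings. A gene was called higher or lower at a log2 fold change above 1 or below -1 with a Benjamini-Hochberg adjusted p under 0.05 in limma, over the 17497 genes that reached 0.5 FPKM in 3 libraries or more. Of these, 9.89% were called higher and 5.39% lower at 3 h against 0 h. The shares were 9.62% higher and 16.6% lower at 12 h, with 13.2% higher and 18.1% lower at 24 h. The libraries of a pair of times did not overlap in 67.9%, 73.1% and 74.5% of all tested genes for 3, 12 and 24 h against 0 h, in 71.8% from 3 to 12 h and in 56.5% from 12 to 24 h, so a lack of overlap, as given for single members, was the usual case. Fold changes are on the log2(FPKM + 0.5) scale, where changes of weakly expressed genes come out too small.

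**Figure D1:**
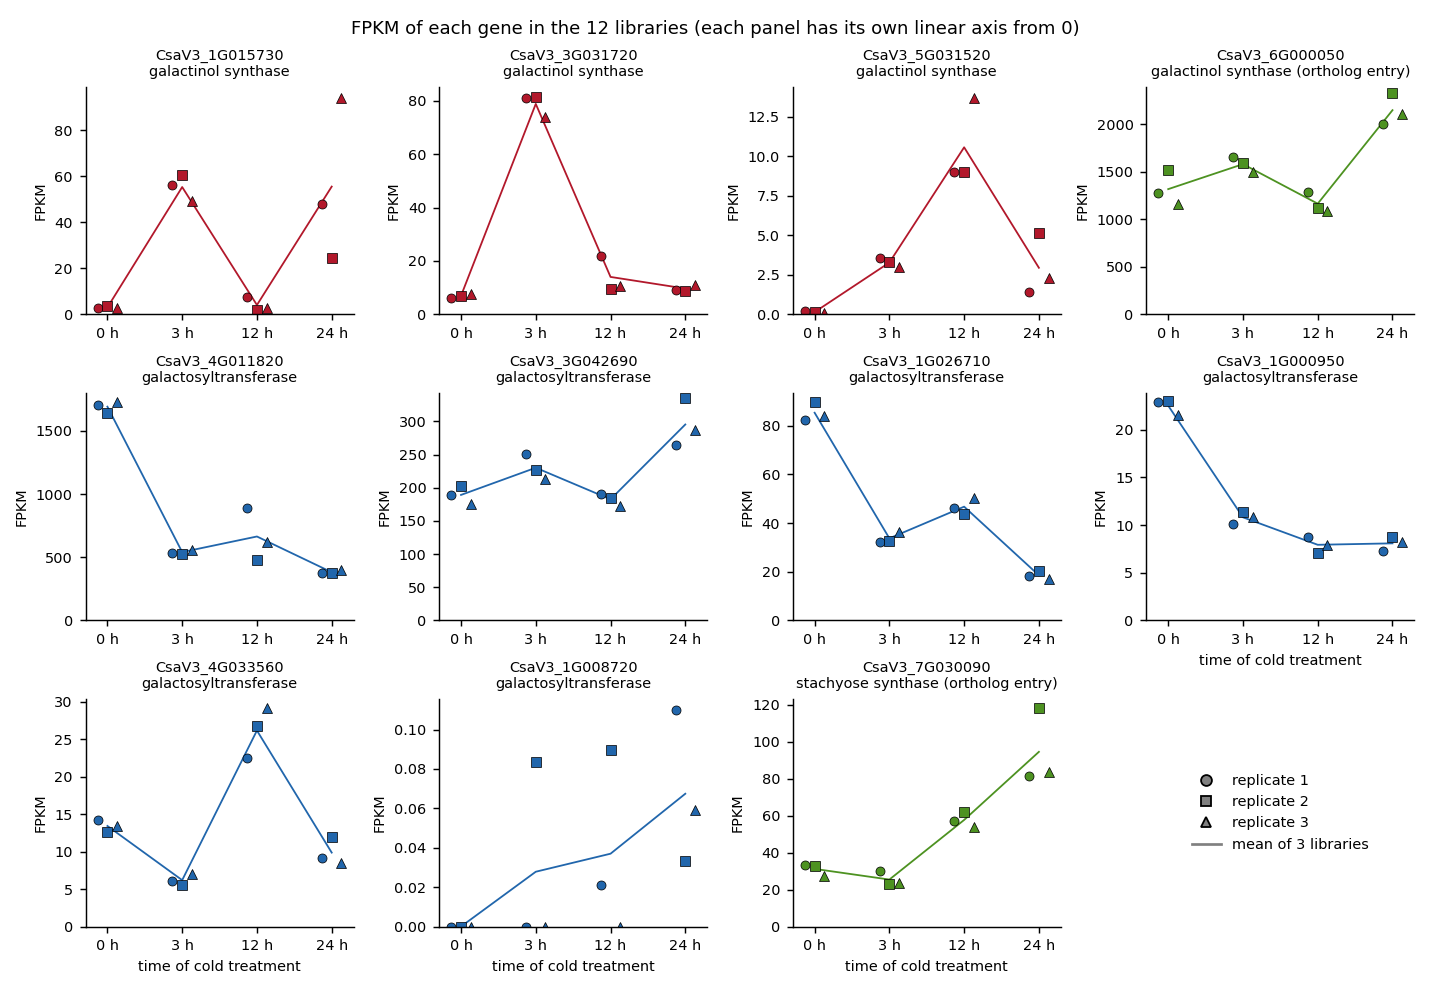
FPKM (vertical axis, linear, from 0, a separate range in each panel) of the 9 members and of 2 genes known only by ortholog entry at 0, 3, 12 and 24 h of cold (horizontal axis). Symbols are single libraries and lines join the means of 3 libraries, with galactinol synthases in red, galactosyltransferases in blue and the 2 other genes in green. The 3 red panels peak at different times, and CsaV3_4G011820 drops from a mean of 1692 FPKM at 0 h to 541 FPKM at 3 h.

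CsaV3_1G015730, described as galactinol synthase 2-like, was listed at 2.82, 3.39 and 2.71 FPKM in the libraries of 0 h and at 56.3, 60.4 and 49.2 FPKM at 3 h. At 12 h it was at 7.42, 1.9 and 2.78 FPKM, and at 24 h at 47.9, 24.3 and 94.2 FPKM. The libraries of 3 and 24 h were all above those of 0 and 12 h, those of 0 and 12 h overlapped, and those of 12 and 24 h were spread more widely relative to their means than those of 0 and 3 h. The means were 2.97 ± 0.365, 55.3 ± 5.66, 4.03 ± 2.97 and 55.5 ± 35.5 FPKM (SD, n = 3 at each time). Against 0 h the log2 fold change was 4.005 (SE 0.48, limma adjusted p = 4.25e-05) at 3 h, 0.20 (SE 0.48, adjusted p = 0.734) at 12 h and 3.81 (SE 0.48, adjusted p = 3.17e-05) at 24 h. Ranked from the highest rise, it stood at place 78 of the 17497 tested genes at 3 h and at place 195 at 24 h. The fall from 3 to 12 h (log2 fold change -3.81, SE 0.48, adjusted p = 4.39e-05) and the rise from 12 to 24 h (3.61, SE 0.48, adjusted p = 0.000115) both passed the test. With each library left out in turn, the change at 24 h against 0 h lay between 3.32 and 4.29 on the log2 scale.

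CsaV3_3G031720, described as galactinol synthase 1-like, stood at 6.20, 6.94 and 7.62 FPKM at 0 h and at 81.0, 81.5 and 74.1 FPKM at 3 h. It was at 21.8, 9.55 and 10.6 FPKM at 12 h and at 9.02, 8.89 and 11.02 FPKM at 24 h. The libraries of 3 h were apart from all others, and every library of 12 and 24 h remained above every library of 0 h. The log2 fold change against 0 h was 3.42 (SE 0.23, adjusted p = 2.11e-07) at 3 h, 0.88 (SE 0.23, adjusted p = 0.00491) at 12 h and 0.45 (SE 0.23, adjusted p = 0.0990) at 24 h. The value at 12 h missed the fold threshold. It passed that threshold at 1.12 after rescaling by median ratios and at 1.07 after quantile normalization, and at 1.09 and 1.02 without 12 h replicate 2 or 3, while without 12 h replicate 1 it was 0.52. The fall from 3 to 12 h was called (log2 fold change -2.55, SE 0.23, adjusted p = 1.57e-06).

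CsaV3_5G031520 is also described as galactinol synthase 1-like and was weakly expressed before cold, at 0.185, 0.155 and 0.0760 FPKM. It was at 3.56, 3.29 and 2.97 FPKM at 3 h, at 8.98, 9.02 and 13.7 FPKM at 12 h and at 1.39, 5.16 and 2.29 FPKM at 24 h. No library of 0 h overlapped those of a later time, and the libraries of 12 h were above all others. The gene passed the filter through its 9 cold libraries only, since all values at 0 h were below 0.5 FPKM, so its changes against 0 h are given from the fit with no filter. There its log2 fold change was 2.56 (adjusted p = 4.24e-05) at 3 h, 4.09 (adjusted p = 4.62e-07) at 12 h and 2.28 (adjusted p = 5.35e-05) at 24 h. From 3 to 12 h it rose further (log2 fold change 1.53, SE 0.31, adjusted p = 0.000983), and from 12 to 24 h it fell by 1.81 on the log2 scale (SE 0.31, adjusted p = 0.000451).

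Together the 3 galactinol synthase members held 10.04 ± 0.721 FPKM at 0 h, 137 ± 9.89 FPKM at 3 h, 28.6 ± 8.97 FPKM at 12 h and 68.1 ± 35.6 FPKM at 24 h (SD, n = 3). With the non-member CsaV3_6G000050 added, the sum was 1327 ± 183 FPKM at 0 h and 1718 ± 87.1 FPKM at 3 h (SD, n = 3). The gene that led the sum of the 3 members changed with time. CsaV3_3G031720 held 66.2 to 73.2% of it in the libraries of 0 h and 56.1 to 58.7% at 3 h, but 10.3 to 23.2% at 24 h. CsaV3_1G015730 held 26.0 to 32.3% at 0 h and 63.4 to 87.6% at 24 h. The share of CsaV3_5G031520 was 0.730 to 2.01% at 0 h and 23.5 to 50.5% at 12 h, when 1 of the 3 libraries had it as the leading member. The ratio of CsaV3_1G015730 to CsaV3_3G031720 ranged from 0.356 to 0.488 at 0 h and from 0.664 to 0.741 at 3 h, then from 0.199 to 0.340 at 12 h and from 2.74 to 8.55 at 24 h, with no overlap between any of the 4 times. These shares and ratios are descriptions and carry no test.

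**Figure D2:**
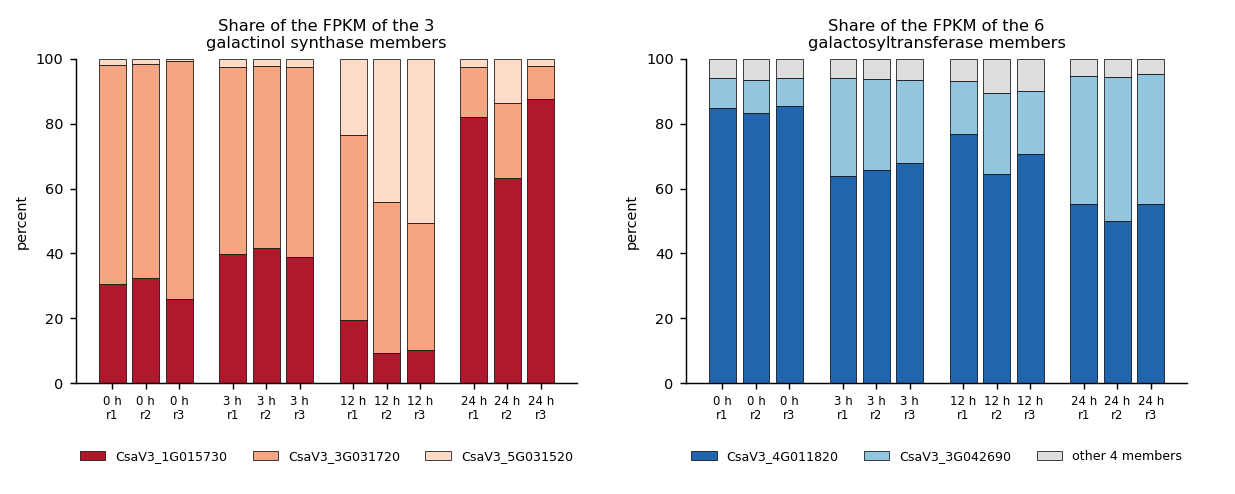
Percent of summed FPKM (vertical axis, 0 to 100) in each of the 12 libraries (horizontal axis, r1 to r3 are replicates 1 to 3), for the 3 galactinol synthase members (left) and the 6 galactosyltransferase members (right). CsaV3_1G015730 holds 63.4 to 87.6% of the left bars at 24 h, and CsaV3_4G011820 shrinks from 83.3 to 85.5% of the right bars at 0 h to 50.01 to 55.4% at 24 h.

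CsaV3_4G011820, described as probable galactinol--sucrose galactosyltransferase 2-like, was the most abundant member at all 4 times. It was listed at 1704, 1640 and 1732 FPKM at 0 h, at 532, 529 and 561 FPKM at 3 h, at 893, 477 and 623 FPKM at 12 h and at 372, 376 and 396 FPKM at 24 h. All cold libraries were below those of 0 h, and the libraries of 12 h were spread across those of 3 h. The log2 fold change against 0 h was -1.65 (SE 0.16, adjusted p = 4.38e-06) at 3 h, -1.40 (SE 0.16, adjusted p = 8.99e-06) at 12 h and -2.15 (SE 0.16, adjusted p = 1.65e-07) at 24 h. The mean at 0 h was 3.13 times that at 3 h and 4.44 times that at 24 h. Genes of this type in other plants include raffinose synthases and alkaline alpha-galactosidases. The descriptions do not say which activity this gene or any other galactosyltransferase member encodes.

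CsaV3_1G026710, described as probable galactinol--sucrose galactosyltransferase 6-like, is of the type named dark inducible 10 in Arabidopsis. It went from 82.1, 89.8 and 84.0 FPKM at 0 h to 32.2, 32.8 and 36.1 FPKM at 3 h. It was then at 46.3, 43.6 and 50.2 FPKM at 12 h and at 18.3, 20.4 and 16.8 FPKM at 24 h. No 2 times overlapped, with the order 0, 12, 3 and 24 h from high to low. The log2 fold change against 0 h was -1.33 (SE 0.08, adjusted p = 9.18e-08) at 3 h, -0.86 (SE 0.08, adjusted p = 1.44e-06) at 12 h, which missed the fold threshold, and -2.18 (SE 0.08, adjusted p = 3.06e-10) at 24 h. It fell from 12 to 24 h as well (log2 fold change -1.31, SE 0.08, adjusted p = 1.74e-07).

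CsaV3_1G000950, described as probable galactinol--sucrose galactosyltransferase 2 isoform X1, was at 22.9, 23.0 and 21.6 FPKM at 0 h and at 10.2, 11.4 and 10.9 FPKM at 3 h. It was at 8.79, 7.08 and 7.91 FPKM at 12 h and at 7.23, 8.77 and 8.24 FPKM at 24 h. The gene thus stepped down early and stayed low, with 12 and 24 h overlapping. Its log2 fold change against 0 h was -1.03 (SE 0.09, adjusted p = 1.99e-06), -1.45 (SE 0.09, adjusted p = 3.97e-08) and -1.43 (SE 0.09, adjusted p = 3.75e-08) at 3, 12 and 24 h. The call at 3 h lay close to the fold threshold and was lost at -0.99 with a pseudocount of 1 and at -0.98 without 3 h replicate 1.

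CsaV3_4G033560, described as probable galactinol--sucrose galactosyltransferase 1, moved in both directions. It was at 14.2, 12.7 and 13.4 FPKM at 0 h, at 6.04, 5.54 and 7.02 FPKM at 3 h, at 22.5, 26.8 and 29.2 FPKM at 12 h and at 9.20, 11.9 and 8.51 FPKM at 24 h. No 2 times overlapped, with 12 h the highest and 3 h the lowest. Against 0 h the log2 fold change was -1.06 (SE 0.13, adjusted p = 2.55e-05) at 3 h, 0.93 (SE 0.13, adjusted p = 4.32e-05) at 12 h and -0.44 (SE 0.13, adjusted p = 0.00956) at 24 h, so that only the first was called. The first call was lost at -0.99 without 3 h replicate 2, and the value at 12 h reached 1.19 after median-ratio rescaling, 1.11 after quantile normalization and 1.03 without 12 h replicate 1. The rise from 3 to 12 h (1.99, SE 0.13, adjusted p = 8.98e-08) and the fall from 12 to 24 h (-1.37, SE 0.13, adjusted p = 4.77e-06) were called.

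CsaV3_3G042690, described as probable galactinol--sucrose galactosyltransferase 5-like, shares its number with the Arabidopsis gene that encodes a raffinose synthase. It passed the fold threshold in none of the 5 comparisons, with 188, 203 and 176 FPKM at 0 h and 250, 227 and 213 FPKM at 3 h. It was at 191, 184 and 172 FPKM at 12 h and at 265, 335 and 286 FPKM at 24 h. The libraries of 24 h were above all others. The log2 fold change at 24 h against 0 h was 0.64 (SE 0.09, adjusted p = 5.62e-05), under the fold threshold, beside 0.28 (SE 0.09, adjusted p = 0.0226) at 3 h and -0.05 (SE 0.09, adjusted p = 0.651) at 12 h. The remaining member, CsaV3_1G008720, described as galactinol--sucrose galactosyltransferase-like, was listed at 0 in all libraries of 0 h, was above 0 in 6 of the 12 libraries and reached at most 0.110 FPKM. It was not tested, and no fold is given.

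The make-up of the galactosyltransferase transcripts shifted as their sum fell. The 6 members held 2002 ± 30.5 FPKM at 0 h, 822 ± 13.6 FPKM at 3 h, 928 ± 215 FPKM at 12 h and 713 ± 39.8 FPKM at 24 h (SD, n = 3). CsaV3_4G011820 held 83.3 to 85.5% of the sum at 0 h and 50.01 to 55.4% at 24 h, while CsaV3_3G042690 went from 8.68 to 10.3% at 0 h to 39.4 to 44.5% at 24 h. The ratio of the former to the latter was 8.99 ± 0.892 before cold and 2.36 ± 0.258 after 3 h, followed by 3.63 ± 1.05 after 12 h and 1.30 ± 0.157 after 24 h. The 14 genes described as phloem proteins, sieve element occlusion proteins or sucrose transport proteins were taken as phloem markers by description only. Whether they are specific to the phloem was not tested. They summed to between 498 and 827 FPKM at 0 h, 348 and 489 FPKM at 3 h, 403 and 446 FPKM at 12 h and 396 and 548 FPKM at 24 h. All 14 were above 0 in some library and 2 were at 0 in every library of 0 h. Of the 10 that were tested, 1 rose and none fell at 3 h (all tested genes 9.89% and 5.39%), 1 rose and 1 fell at 12 h (9.62% and 16.6%), and 3 rose and 1 fell at 24 h (13.2% and 18.1%). Of the 19 mesophyll markers, all tested, 8, 15 and 9 were called higher at 3, 12 and 24 h against 0 h and none lower. The part of phloem or mesophyll content in the members' values was not tested.

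Counted over the family, 7 of the 8 tested members were called at 3 h against 0 h, 3 higher and 4 lower, where 15.3% of all tested genes were called in either direction. The counts include CsaV3_5G031520 and were the same with no filter on low values. Members and rule were chosen with earlier results of these data known, so the counts are descriptions and test no excess of calls. For 12 h against 0 h the count was 3, with 1 higher and 2 lower, beside 26.3% of all tested genes. For 24 h against 0 h it was 5, with 2 higher and 3 lower, beside 31.3%. From 3 to 12 h, 4 members were called, 2 higher and 2 lower, beside 21.3% of all tested genes (6.00% higher, 15.3% lower). From 12 to 24 h, 4 were called, 1 higher and 3 lower, beside 13.7% (8.46% higher, 5.20% lower). The comparisons with 0 h share the same 3 control libraries, so their counts are not independent of each other. At 12 h against 0 h the share called among the members was thus near that of all genes, and after median-ratio rescaling 5 members were called there, 3 higher and 2 lower.

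**Figure D3:**
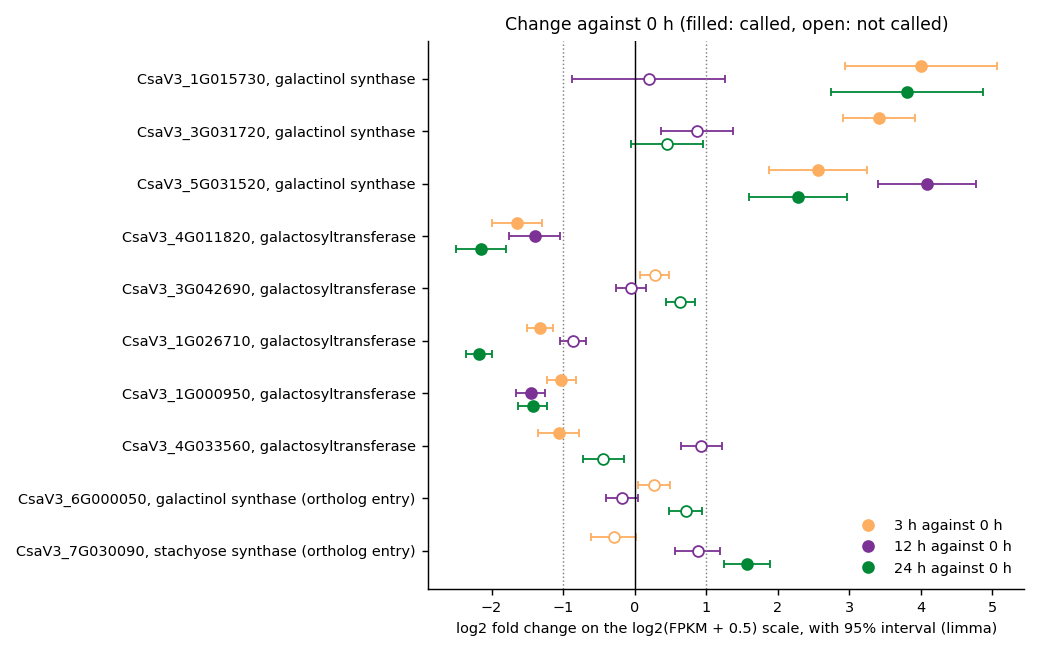
Log2 fold change against 0 h on the log2(FPKM + 0.5) scale (horizontal axis) of the 8 tested members and the 2 genes known by ortholog entry (rows) at 3 h (orange), 12 h (purple) and 24 h (green). Bars are 95% intervals from limma, filled symbols are called genes, and dotted lines mark the fold threshold of 1 in either direction. All filled symbols of galactinol synthases lie to the right and all filled symbols of galactosyltransferases to the left. All points are from the fit with the filter, which CsaV3_5G031520 passed through its cold libraries only.

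The order of levels within the family was clear at 0 and 3 h and looser at 12 and 24 h. Counting the 9 members with the 2 further genes described next, no neighbours in the order overlapped at 0 or 3 h. At 12 h CsaV3_3G031720 overlapped CsaV3_5G031520, and CsaV3_1G000950 overlapped CsaV3_1G015730. At 24 h CsaV3_4G033560 overlapped CsaV3_3G031720, and CsaV3_1G015730 overlapped CsaV3_7G030090. Among the members, the libraries of 12 and 24 h deviated more from their means than those of 0 and 3 h. The root mean square deviation over the tested members was 0.48 on the log2 scale in 12 h replicate 1 and in 24 h replicate 2, beside 0.22 and 0.25 over all tested genes in these libraries, while the highest such value for the members at 0 or 3 h was 0.113.

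The rule by description missed 2 genes whose ortholog entry in the table, taken by the authors from KEGG, names an enzyme of the pathway. They were found after the values had been seen and are not members. CsaV3_6G000050, described as an uncharacterized protein, has the entry of galactinol synthase, and RefSeq gives its locus the symbol GOLS on chromosome 6, from 46441 to 48688 in the assembly Cucumber_9930_V3. It was far more abundant than the 3 members, at 1280, 1515 and 1156 FPKM at 0 h, 1651, 1594 and 1496 FPKM at 3 h, 1289, 1118 and 1086 FPKM at 12 h and 2002, 2331 and 2112 FPKM at 24 h. The libraries of 24 h were above all others. Its log2 fold change against 0 h was 0.27 (SE 0.10, adjusted p = 0.0415) at 3 h, -0.17 (SE 0.10, adjusted p = 0.156) at 12 h and 0.71 (SE 0.10, adjusted p = 5.01e-05) at 24 h, none past the fold threshold. Of the summed FPKM of the 4 genes with a galactinol synthase entry, it held 99.1 to 99.3% at 0 h, 91.7 to 92.2% at 3 h, 97.1 to 98.2% at 12 h and 95.2 to 98.4% at 24 h. The 4 genes summed to 1327 ± 183 FPKM before cold and 1718 ± 87.1 FPKM after 3 h, then to 1193 ± 117 FPKM after 12 h and 2216 ± 155 FPKM after 24 h (SD, n = 3). This total was highest at 24 h, whereas the sum of the 3 members alone was highest at 3 h.

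CsaV3_7G030090, described as steryl-sulfatase, has the ortholog entry of stachyose synthase, so that description and entry disagree. It was at 33.3, 33.0 and 27.2 FPKM at 0 h and at 29.9, 22.8 and 23.5 FPKM at 3 h. It was then at 57.1, 61.8 and 54.0 FPKM at 12 h and at 81.5, 118 and 83.7 FPKM at 24 h. The libraries of 0 and 3 h overlapped, those of 12 h were above both, and those of 24 h were above all. The log2 fold change against 0 h was -0.29 (SE 0.15, adjusted p = 0.104) at 3 h, 0.88 (SE 0.15, adjusted p = 0.000169) at 12 h and 1.57 (SE 0.15, adjusted p = 1.00e-06) at 24 h, the last of them called. The value at 12 h passed the fold threshold at 1.14 after median-ratio rescaling and at 1.03 after quantile normalization.

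The supply of the substrates UDP-galactose and myo-inositol was described by 12 genes of epimerases, inositol-3-phosphate synthases, inositol monophosphatases, pyrophosphorylases and galactokinases, of which 11 were tested. None was called at 3 h, and at both 12 and 24 h 1 was higher and 2 were lower, a share near that of all tested genes (26.3% and 31.3%). The 2 lower genes are described as inositol-3-phosphate synthase-like, an enzyme that makes the precursor of myo-inositol. A further inositol-3-phosphate synthase gene, CsaV3_6G045630, was not called at 3, 12 or 24 h, with log2 fold changes of 0.54, -0.26 and -0.67. CsaV3_UNG190490 was at 2475, 2612 and 2629 FPKM at 0 h, 2068, 1972 and 1936 FPKM at 3 h, 860, 756 and 800.1 FPKM at 12 h and 954, 653 and 835 FPKM at 24 h. Its log2 fold change was -1.68 at 12 h (SE 0.11, adjusted p = 5.55e-08) and at 24 h (SE 0.11, adjusted p = 4.41e-08). CsaV3_4G004810 fell by 1.59 at 12 h and by 1.61 at 24 h on the log2 scale. These genes share a description and a course, and whether reads were divided between near-identical copies is unknown. The higher gene was inositol monophosphatase CsaV3_1G017100, which releases myo-inositol, at 37.1 ± 1.99 FPKM at 0 h and 90.5 ± 2.76 FPKM at 12 h (SD, n = 3). It rose by 1.28 on the log2 scale at 12 h (SE 0.12, adjusted p = 1.48e-06) and by 1.05 at 24 h (SE 0.12, adjusted p = 7.64e-06), and the latter was 0.87 and not called without 24 h replicate 2. The median log2 fold change of the list was -0.22, -0.28 and -0.32 at 3, 12 and 24 h, beside 0.03, -0.23 and -0.17 over all tested genes.

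Breakdown was represented by 2 genes described as alpha-galactosidase-like, enzymes that remove galactose from raffinose and stachyose. CsaV3_5G029190 went from 19.4, 17.8 and 17.1 FPKM at 0 h to 5.84, 5.93 and 5.96 FPKM at 3 h, and it was at most 5.42 FPKM afterwards. Its log2 fold change was -1.53 (SE 0.11, adjusted p = 2.75e-07) at 3 h, -1.88 (SE 0.11, adjusted p = 1.76e-08) at 12 h and -1.95 (SE 0.11, adjusted p = 9.36e-09) at 24 h. CsaV3_5G029180 was not called at 3 h and was lower at 12 h (-1.64, SE 0.09, adjusted p = 1.29e-08) and at 24 h (-1.33, SE 0.09, adjusted p = 6.59e-08). No cold library of either gene reached a library of 0 h.

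Of 21 genes of sucrose metabolism, the pathway that provides the acceptor of the galactose, 17 were tested, and 1 rose and 3 fell at 3 h, while 3 rose and 4 fell at 12 h and again at 24 h. Among all tested genes 15.3%, 26.3% and 31.3% were called at these times. At 3 h the called gene with the highest value was sucrose synthase 2-like CsaV3_4G000970, which cleaves sucrose, at 1.67 on the log2 scale (SE 0.32, adjusted p = 0.000881), and the lowest was CsaV3_4G035700, the cell wall invertase CWINV1, with -1.51 (SE 0.18, adjusted p = 1.47e-05). The same CsaV3_4G000970 was called lower at 12 h (-2.13, SE 0.32, adjusted p = 9.04e-05) and stood at -0.91 (SE 0.32, adjusted p = 0.0237) at 24 h, under the fold threshold. At 12 and 24 h the highest was CsaV3_3G015320, an alkaline/neutral invertase A that splits sucrose, with a mean of 6.92 ± 0.581 FPKM at 0 h, 31.3 ± 4.86 FPKM at 12 h and 92.7 ± 32.3 FPKM at 24 h (SD, n = 3). Its log2 fold change was 2.09 (SE 0.22, adjusted p = 3.47e-06) and 3.59 (SE 0.22, adjusted p = 2.36e-08). At the same times the lowest was CsaV3_2G011150, a sucrose-phosphate synthase 2, which makes the precursor of sucrose. It was at 249 ± 16.7 FPKM at 0 h, 52.2 ± 3.54 FPKM at 12 h and 51.5 ± 2.04 FPKM at 24 h, with log2 fold changes of -2.24 (SE 0.07, adjusted p = 1.33e-10) and -2.26 (SE 0.07, adjusted p = 7.95e-11). The median of the list was 0.07, -0.05 and -0.31 on the log2 scale at 3, 12 and 24 h.

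**Figure D4:**
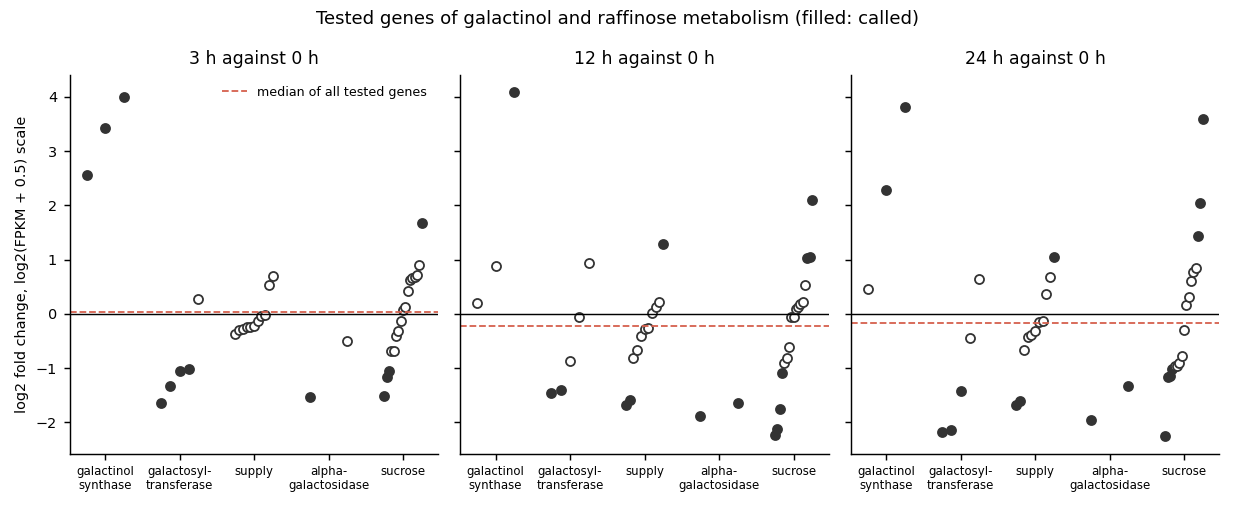
Log2 fold change against 0 h on the log2(FPKM + 0.5) scale (vertical axis) of each tested gene, grouped by role (horizontal axis), at 3, 12 and 24 h. Filled symbols are called genes, and the dashed line is the median of all 17497 tested genes (0.03, -0.23 and -0.17). At 3 h the 3 galactinol synthase members are all filled and positive, while none of the 11 supply genes is filled (15.3% of all tested genes were called). All points are from the fit with the filter, which the galactinol synthase CsaV3_5G031520 passed through its cold libraries only. The 2 genes known only by ortholog entry are not shown. Of these, CsaV3_6G000050 held most of the FPKM with a galactinol synthase entry and was not called at 3 h (0.27).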

How the data were processed

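Leaf RNA of 12 samples was sequenced on an Illumina platform by the authors, who trimmed reads with cutadapt 1.9, checked them with FastQC and aligned them to the cucumber genome with HISAT2. The deposited FPKM values were used as they stand, with 0.0001 read as 0. Neither the program behind the FPKM nor the test behind the authors' own columns of fold changes and p-values is named in the sources at hand, and those columns were not used. The same FPKM recur in 5 tables of pairs of times, which were not used. Read counts were not analysed here, so counting error is unknown, and relative depth was read from values under 0.1 FPKM (ratios within a window of 0.01 on the log2 scale, limited to a factor of 1.5).

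The 17497 genes that reached 0.5 FPKM in 3 or more of the 12 libraries entered, as log2(FPKM + 0.5), 1 limma 3.58.1 fit (R 4.3.3, trend and robust options) with a mean per time. P-values were adjusted by Benjamini-Hochberg over all tested genes. An exact permutation test of 3 against 3 libraries cannot go below 0.1. The script was tested on simulated data, with changes planted only in genes with a mean log2 value above 3 at 0 h. The 3 galactinol synthase members lay below that level, so the simulation does not cover them. Genes were named by rule: all members, the called genes of each list with the highest and lowest fold change at each time, and the 5 genes with a description and a mean of at least 5 FPKM at some time whose changes were most like those of CsaV3_1G015730. Members, lists and rule were chosen with earlier results of these data known, and the 2 genes with only an ortholog entry after seeing the values. The alternatives were pseudocounts of 0.1 and 1, no filter or one of 1 FPKM, median-ratio and quantile normalization, fits of only the 6 libraries compared, a replicate block, unadjusted p-values, no fold threshold, and each library left out. No member matched a RefSeq entry by its ID, so no positions are given for members.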

Additional observations from a re-analysis of the deposited data

Results flagged for a closer look

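The level of 5 members differed from 3 to 12 h or from 12 to 24 h by the limma test of the difference itself, past the fold threshold. Of the 8 tested members, 2 were higher and 2 lower from 3 to 12 h, where 21.3% of all tested genes were called. Between 12 and 24 h, 1 was higher and 3 were lower, where 13.7% of all tested genes were called. From 3 to 12 h the log2 fold change was -3.81 for CsaV3_1G015730 (adjusted p = 4.39e-05) and -2.55 for CsaV3_3G031720 (adjusted p = 1.57e-06), both galactinol synthases, and each of their 12 h libraries was below each of their 3 h libraries (71.8% of all tested genes had no overlap between these times). It was 1.99 for the galactosyltransferase CsaV3_4G033560 (adjusted p = 8.98e-08) and 1.53 for the galactinol synthase CsaV3_5G031520 (adjusted p = 0.000983), with all 12 h libraries above those of 3 h. From 12 to 24 h it was 3.61 for CsaV3_1G015730 (adjusted p = 0.000115), with all 24 h libraries the higher ones (56.5% of all tested genes had no overlap). It was -1.31 for CsaV3_1G026710 (adjusted p = 1.74e-07), -1.37 for CsaV3_4G033560 (adjusted p = 4.77e-06) and -1.81 for CsaV3_5G031520 (adjusted p = 0.000451), with all 24 h libraries the lower ones.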

How the results depend on the processing

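The alternatives that refit the model (all but the changed thresholds) gave 560 log2 fold changes of members. Of these, 550 kept their call or their lack of one, 3 lost a call, 7 gained one and 0 changed sign while called. The 550 include small values that changed sign without being called. With 1 library left out, CsaV3_1G015730 at 12 h against 0 h ran from -0.30 to 0.56. The count of members called at 12 h against 0 h was 3 and became 5 with median-ratio rescaling, 5 with quantile normalization and 6 without a fold threshold, and the count from 3 to 12 h went from 4 to 7 without a fold threshold. Leaving out 1 library at a time gave 6 to 7 calls at 3 h, 3 to 4 at 12 h and 5 to 5 at 24 h against 0 h, 4 to 4 from 3 to 12 h and 4 to 4 from 12 to 24 h. The median of all tested genes stood at -0.23 and -0.17 against 0 h at 12 and 24 h. Median-ratio rescaling changed the calls over all genes from 1684 higher and 2912 lower to 2296 and 1986 at 12 h, and from 2315 and 3159 to 2788 and 2434 at 24 h, and quantile normalization gave 2144 and 2113 at 12 h and 2559 and 2703 at 24 h. The replicate numbers did not pair the samples (correlations of deviations between -0.16 and 0.16), and with the replicate number as a block the counts were 7, 3, 5, 4 and 4, as without it. The p-values rest on 1 estimate of the spread per gene, shared by the 12 libraries with 3 at each time. A wider spread at 12 and 24 h, as in CsaV3_1G015730, thus also enters the test of 3 h against 0 h. FPKM give no counting error for genes near 0, such as CsaV3_5G031520 at 0 h and CsaV3_1G008720.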

Other observations

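The genes whose changes were most like those of the galactinol synthase CsaV3_1G015730, by the root mean square difference of log2 fold changes against 0 h at 3 times among 12272 genes, were CsaV3_7G025370 (0.11), CsaV3_3G014860 (0.22), CsaV3_5G025280 (0.24), CsaV3_5G004900 (0.25) and CsaV3_4G006090 (0.31). CsaV3_7G025370 is described as WRKY transcription factor 46-like, of a family of plant stress regulators, and had means of 2.88, 59.5, 3.17 and 44.6 FPKM at 0, 3, 12 and 24 h. CsaV3_3G014860 is described as the RING-H2 finger protein ATL2, a ubiquitin ligase, and had means of 4.27, 66.8, 5.25 and 52.9 FPKM. CsaV3_5G025280 is described as phosphate transporter PHO1 homolog 3-like, CsaV3_5G004900 as ethylene-responsive transcription factor ERF105, and CsaV3_4G006090 as a hypothetical protein. ERF105 had means of 9.70, 143, 8.52 and 148 FPKM. The likeness rests on 4 time means of the same 12 libraries and is a description.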
